A study of Arabidopsis thaliana with 11 samples.

Results

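This account follows 10 Arabidopsis loci of the iron deficiency response across the WT and psy1r seedlings of a PSY1 peptide experiment. The genes were the transcription factors FRU (AT2G28160, also called FIT), bHLH38 (AT3G56970), bHLH39 (AT3G56980), bHLH100 (AT2G41240), bHLH101 (AT5G04150) and PYE (AT3G47640). The ferric chelate reductases FRO2 (AT1G01580) and FRO3 (AT1G23020), the iron transporter IRT1 (AT4G19690) and the copper transporter COPT2 (AT3G46900) completed the set. They were found by the RefSeq transcript that the array gives for each probe, and 13 of the 43603 probes belonged to them, among 25433 loci with a probe. All 10 loci passed the filter on dim probes and were tested.

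The plants were whole seedlings of ecotype Columbia-0, grown in hydroponic culture for 1 week. PSY1 is a secreted, tyrosine-sulfated peptide, and PSY1R (AT1G72300) is the leucine-rich repeat receptor kinase named for it. The 4 groups were untreated wild type (WT), wild type given 10 nM PSY1 for 4 h (WT + PSY1), the untreated receptor knockout (psy1r) and the knockout given the same dose for the same time (psy1r + PSY1). WT, psy1r and WT + PSY1 were measured on 3 arrays apiece and psy1r + PSY1 on 2 arrays (replicates 1 and 3), and the mutant is a single knockout line. Each sample was the pooled RNA of many seedlings, so fewer cells of a type and less RNA per cell cannot be told apart.

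Arabidopsis takes up iron from the soil by reduction. Protons and phenolic coumarins are released from the root, FRO2 reduces ferric iron at the epidermal plasma membrane, and IRT1 carries the ferrous ion into the cell. FRU is the central activator of FRO2 and IRT1 in the root epidermis, and it works as a dimer with one of the group Ib bHLH proteins bHLH38, bHLH39, bHLH100 and bHLH101, whose transcripts accumulate strongly under iron shortage in root and leaf. PYE (POPEYE) is a bHLH repressor that acts mainly in the root vasculature, where it binds the genes of FRO3 and other iron distribution proteins. COPT2 is a high-affinity copper importer whose transcript responds to the supply of copper and of iron.

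Values below are processed spot intensities in log2, scaled so that all arrays share one 75th percentile, and they were compared only for one probe across arrays. A probe was called where limma gave a Benjamini-Hochberg adjusted p below 0.05 over all tested probes and the change was above 2-fold. Where groups are said not to overlap, the share of all loci without overlap was not counted, so this only describes the arrays. FRU and COPT2 had been selected on the comparison of psy1r against WT, and IRT1, FRU and COPT2 on that of psy1r + PSY1 against WT + PSY1, of these same arrays. For the 10 genes both mutant comparisons are therefore given as a description with no p, and so is the difference between the 2 PSY1 responses. Where a value of these genes in a mutant comparison is said to pass both limits or to be called, this only describes the fit. It is no support for a difference, since these arrays chose some of the genes. The PSY1 comparisons within each plant line were tested, although they share their arrays with the comparisons above.

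Replicates were not equally far apart. Over 29951 probes, the median absolute log2 difference between replicates 1 and 2 was 0.0696 in WT and 0.0845 in psy1r, whereas replicate 3 lay 0.29 and 0.278 from the others in WT and 0.329 and 0.325 in psy1r. In WT + PSY1 all 3 pairs lay between 0.0681 and 0.092, and the 2 psy1r + PSY1 arrays lay 0.32 apart. The paper describes the biological samples as independent, and why replicates 1 and 2 lay closer together in WT and psy1r was not tested. If they share material, the p-values measure only the spread between these arrays. Arrays with equal replicate numbers shared a slide, so a within-slide difference is given beside the pooled one. Such arrays were not taken as pairs, since their deviations from the group mean correlated only between -0.152 and 0.406. The knocked out gene PSY1R read 9.42, 9.44 and 8.77 in WT and 9.15, 8.95 and 9.18 in WT + PSY1. It read 4.06, 4.12 and 2.08 in psy1r, and 3.11 and 5.91 in psy1r + PSY1, and only 1 array of each mutant group was well above background. The fitted difference of PSY1R between psy1r and WT was -5.79 (SE 0.73, adjusted p = 0.0103), a size that is not exact because 2 of the 3 psy1r arrays were not well above background, and replicate 3 of psy1r + PSY1 was the highest of the mutant arrays.

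On its brighter probe, FRU was lower in the mutant on each slide, with or without the peptide. In replicate order its probe A_84_P102316 read 6.51, 6.58 and 6.08 in WT and 6.34, 6.41 and 6.46 in WT + PSY1. It read 5.18, 5.23 and 4.64 in psy1r, and 5.03 and 5.70 in psy1r + PSY1. Every mutant array lay below every wild-type array. The log2 fold change was -1.37 (SE 0.23, 2.58-fold lower, n = 3 and 3) for psy1r against WT, with within-slide differences of -1.33, -1.35 and -1.44. It was -1.04 (SE 0.25, 2.05-fold lower, n = 2 and 3) for psy1r + PSY1 against WT + PSY1, with -1.31 on slide 1 and -0.76 on slide 3. The first of these passed both limits and the second did not. With the slide as a block in the fit, neither passed (-1.37 and -0.97). Leaving out 1 array gave values from -1.52 to -1.18 for the first, which stayed past both limits in 4 of the 11 cases. It was lost without WT replicate 1 (-1.31) or 2 (-1.27), without psy1r replicate 1 (-1.45) or 2 (-1.48) and without any 1 of the WT + PSY1 arrays (-1.37 each). The second value passed without WT replicate 3 or psy1r replicate 3 (-1.04 each), and was -0.70 without psy1r + PSY1 replicate 1 and -1.37 without replicate 3.

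A dimmer FRU probe, A_84_P789056, followed only in part. It read 4.42, 4.48 and 4.63 in WT, 3.49, 4.97 and 4.54 in WT + PSY1, 4.53, 4.09 and 2.25 in psy1r, and 3.71 and 3.98 in psy1r + PSY1. It was well above background on 6 of the 11 arrays, among them 1 of the 3 psy1r arrays and neither psy1r + PSY1 array. Its log2 fold changes were -0.88 (SE 0.57) for psy1r against WT and -0.48 (SE 0.63) for psy1r + PSY1 against WT + PSY1, and in both comparisons the groups overlapped. On slide 1 this probe was higher in the mutant, by 0.12 without and 0.23 with the peptide. It was lower on slide 2 (-0.39 without the peptide) and on slide 3 (-2.38 without and -0.56 with it). PSY1 itself left no called difference in FRU. The value of WT + PSY1 against WT was 0.02 (SE 0.23, adjusted p = 0.977), and that of psy1r + PSY1 against psy1r was 0.35 (SE 0.25, adjusted p = 1).

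All 4 group Ib bHLH genes were lower in psy1r than in WT on slides 1 and 2. On slide 3 bHLH38 and bHLH39 were lower as well, whereas bHLH100 and bHLH101 were higher. For each of the 4 genes array 3 was the highest of its group in WT, psy1r and psy1r + PSY1 but not in WT + PSY1. bHLH101, an interaction partner of FRU, read 12.27, 12.33 and 12.73 in WT, 12.48, 12.47 and 12.46 in WT + PSY1, 10.62, 10.66 and 13.32 in psy1r, and 10.79 and 12.47 in psy1r + PSY1. The psy1r arrays 1 and 2 were the lowest of all and psy1r array 3 was the highest of all. Its within-slide differences between psy1r and WT were -1.66, -1.67 and 0.59, and the pooled log2 fold change was -0.91 (SE 0.70). Without psy1r replicate 3 the value was -1.81 and passed both limits.

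bHLH100 read 13.14, 13.11 and 13.87 in WT, 13.41, 13.43 and 13.38 in WT + PSY1, 12.06, 11.89 and 14.18 in psy1r, and 11.54 and 13.92 in psy1r + PSY1. Array 3 was again the top value of WT and of both mutant groups. The difference between psy1r and WT was -1.08 on slide 1, -1.23 on slide 2 and 0.31 on slide 3. With the peptide, psy1r + PSY1 differed from WT + PSY1 by -1.87 on slide 1 and 0.54 on slide 3. The pooled values of -0.67 (SE 0.70) and -0.68 (SE 0.79) thus averaged over differences of opposite sign.

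bHLH38 and bHLH39, whose loci are neighbors in the annotation, showed the same rise of array 3 in WT. bHLH38 read 11.38, 11.34 and 13.06 in WT, 11.03, 11.14 and 10.87 in WT + PSY1, 10.12, 10.21 and 12.19 in psy1r, and 10.12 and 12.31 in psy1r + PSY1. bHLH39 read 11.30, 11.21 and 12.82 in WT, 11.13, 10.94 and 11.11 in WT + PSY1, 10.61, 10.34 and 12.23 in psy1r, and 10.01 and 12.25 in psy1r + PSY1. Within a slide both were lower in psy1r than in WT on all 3 slides, by 1.26, 1.13 and 0.87 for bHLH38 and by 0.69, 0.86 and 0.60 for bHLH39, all in log2 units. The pooled values were -1.09 (SE 0.74) and -0.72 (SE 0.69), and the groups overlapped. Against WT + PSY1, psy1r + PSY1 was lower on slide 1 (-0.91 and -1.12) and higher on slide 3 (1.44 and 1.14).

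The untreated WT arrays lay above the WT + PSY1 arrays without overlap for bHLH38 and bHLH39, yet neither gene was called. The log2 fold changes were -0.91 (SE 0.74, adjusted p = 0.509) and -0.71 (SE 0.69, adjusted p = 0.587). On slide 3 alone the differences were -2.19 and -1.71, whereas on slides 1 and 2 they lay between -0.35 and -0.16. Without WT replicate 3 the values were -0.34 and -0.19. bHLH100 and bHLH101 differed by 0.03 each between these groups (SE 0.70, adjusted p = 0.985 and 0.987). Over all tested probes, 20.9% had an unadjusted limma p below 0.05 in this comparison.

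**Figure D1:**
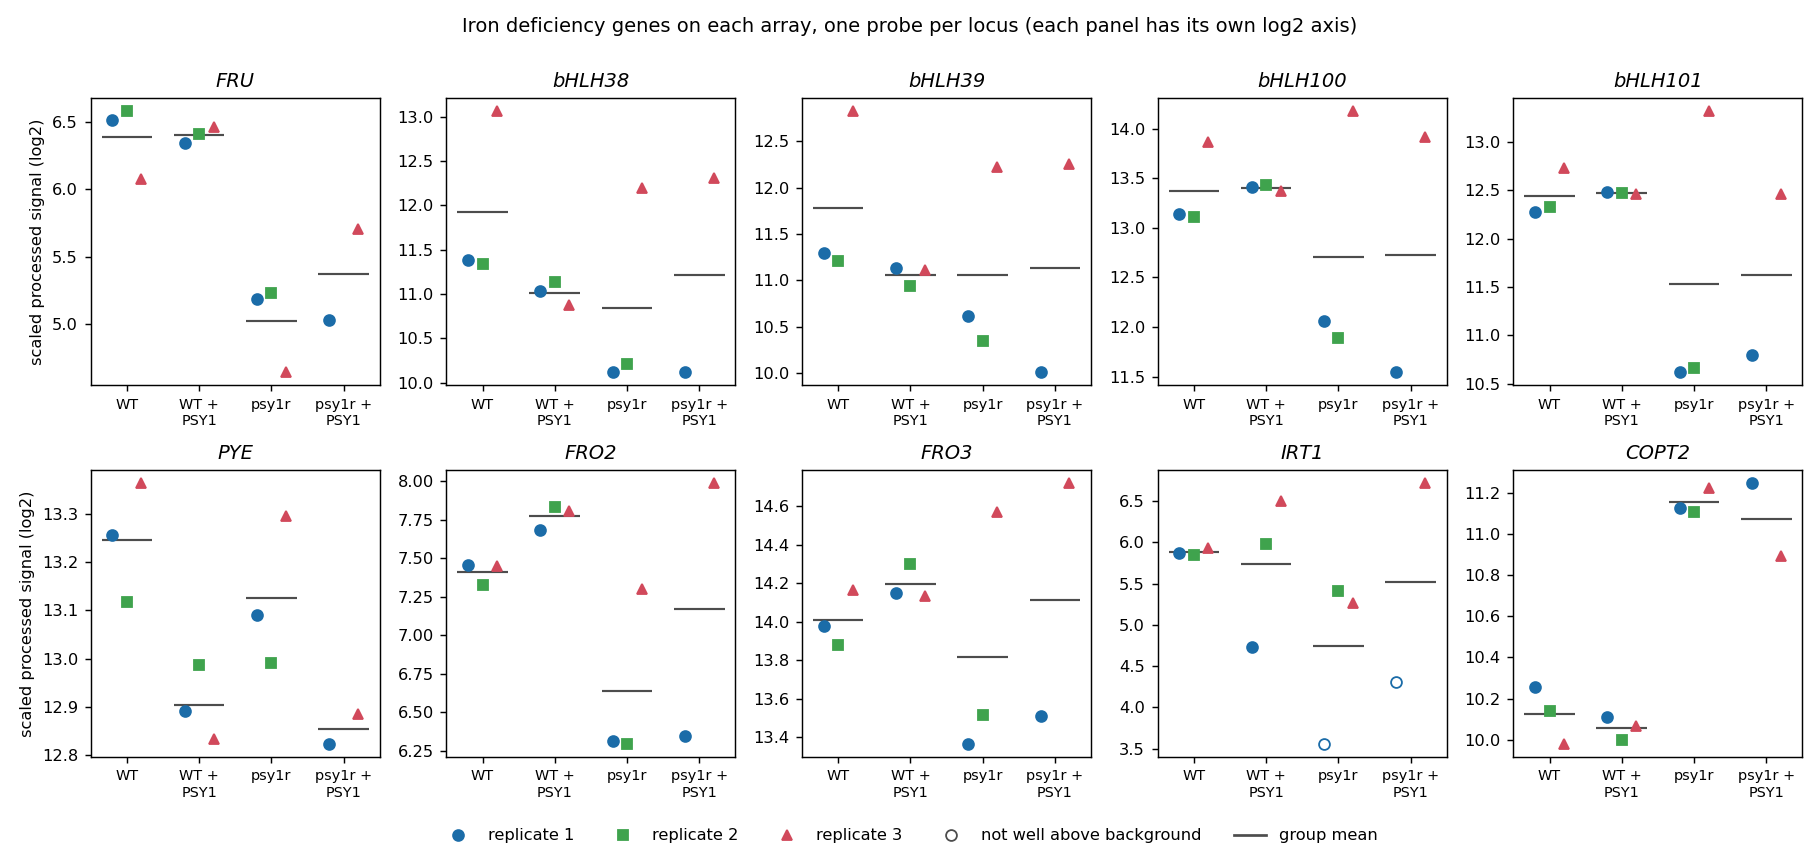
Scaled processed signal (log2, own axis in each panel) of the 10 genes on the 11 arrays, with 1 probe per locus. Symbols mark the replicate number, open symbols are not well above background, and lines are group means. The mutant arrays of FRU lie below and those of COPT2 above all wild-type arrays, whereas replicate 3 of WT, psy1r and psy1r + PSY1 is the highest array of its group for the group Ib bHLH genes.

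Array 3 stood apart for many genes, so the size of this step was set beside all tested loci. In psy1r, array 3 lay above the mean of the other arrays by 2.68 for bHLH101, 2.20 for bHLH100, 2.03 for bHLH38 and 1.75 for bHLH39. Of the 21925 tested loci, 1.14%, 2.69%, 3.44% and 5.12% had a larger absolute step in psy1r, where the median absolute step was 0.335. For psy1r + PSY1 the steps were 1.68, 2.37, 2.19 and 2.24 in the same order, and 4.42%, 1.77%, 2.19% and 2.03% of loci had larger ones. WT had steps of 0.43, 0.74, 1.70 and 1.57, and 36.5%, 18%, 3.22% and 4.01% of loci had larger ones there. In WT + PSY1 the steps of the 4 genes lay between -0.21 and 0.08, and the median absolute step over all loci was 0.0735.

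Markers of other tissues moved on some of these arrays. Leaf photosynthesis genes (RBCS1A, RCA, LHCB3, LHCA4 and LHCB5) were well above background on every array, and between 4 and 5 of 5 further root genes were on each array, so root and shoot were both present as labelled. The 9 tested root hair and epidermis markers summed to 1614 to 3744 intensity units in WT, 2761 to 3022 in WT + PSY1, 1259 to 2839 in psy1r and 1886 to 1903 in psy1r + PSY1. The lowest sums of WT and of psy1r were those of replicate 3, and 7 of 9 markers were well above background on that psy1r array against 9 of 9 on each of the others. The 9 tested seed storage and oil body genes summed to 251 to 1120 in WT, 285 to 427 in WT + PSY1 and 360.5 to 844 in psy1r. On the psy1r + PSY1 arrays they summed to 328 in replicate 1 and 35793 in replicate 3. The part of these markers in the steps of array 3 was not tested.

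PYE varied least, with all 11 arrays between 12.82 and 13.36. It read 13.26, 13.12 and 13.36 in WT, 12.89, 12.99 and 12.83 in WT + PSY1, 13.09, 12.99 and 13.30 in psy1r, and 12.82 and 12.89 in psy1r + PSY1. In each plant line the treated arrays lay below the untreated arrays without overlap. The log2 fold change was -0.34 (SE 0.11, adjusted p = 0.15) for WT + PSY1 against WT and -0.27 (SE 0.13, adjusted p = 0.955) for psy1r + PSY1 against psy1r, and neither was called. All 5 within-slide differences were below 0 and ran from -0.53 to -0.13. The mutant comparisons gave -0.12 (SE 0.11) without and -0.05 (SE 0.13) with the peptide.

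Of the reductases, FRO2 was lower in psy1r on slides 1 and 2 and level with WT on slide 3. It read 7.45, 7.32 and 7.45 in WT, 7.68, 7.83 and 7.81 in WT + PSY1, 6.31, 6.30 and 7.30 in psy1r, and 6.35 and 7.99 in psy1r + PSY1. Within slides psy1r differed from WT by -1.14, -1.03 and -0.15, with a pooled value of -0.77 (SE 0.40) and no overlap. psy1r + PSY1 differed from WT + PSY1 by -1.34 on slide 1 and 0.18 on slide 3. FRO2 was higher in all 3 WT + PSY1 arrays than in any WT array, by 0.37 (SE 0.40, adjusted p = 0.633), and was not called.

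FRO3, which encodes a mitochondrial ferric reductase and is bound by PYE, had a narrower spread. It read 13.98, 13.88 and 14.17 in WT, 14.15, 14.30 and 14.13 in WT + PSY1, 13.36, 13.52 and 14.57 in psy1r, and 13.51 and 14.72 in psy1r + PSY1. As for bHLH100 and bHLH101, the mutant was below WT on slides 1 and 2 (-0.61 and -0.36) and above it on slide 3 (0.40). Under PSY1 the corresponding differences were -0.64 and 0.59. All 4 pooled comparisons of FRO3 lay between -0.19 and 0.30 and none was called.

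The IRT1 probes disagreed. Probe A_84_P828825 read 5.87, 5.85 and 5.94 in WT, 4.73, 5.98 and 6.50 in WT + PSY1, 3.56, 5.41 and 5.27 in psy1r, and 4.31 and 6.72 in psy1r + PSY1. It was not well above background on psy1r replicate 1 and on psy1r + PSY1 replicate 1. Its psy1r arrays lay below its WT arrays, with within-slide differences of -0.43 on slide 2 and -0.67 on slide 3. The pooled value was -1.14 (SE 0.72) with psy1r replicate 1, which was not well above background, and -0.54 without it. psy1r + PSY1 and WT + PSY1 overlapped (-0.22, SE 0.80).

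Probe A_84_P764469 was well above background only on the psy1r + PSY1 arrays, where it read 6.99 and 7.31. It read 3.17, 3.24 and 3.52 in WT, 2.85, 2.97 and 3.11 in WT + PSY1, and 2.33, 2.75 and 2.75 in psy1r, all not well above background. On this probe psy1r + PSY1 was at least 14.66-fold above WT + PSY1 and at least 10.74-fold above psy1r. Both bounds set the mean of the bright arrays against a mean over the dim arrays. Each dim array entered with the probe's own signal or, if higher, with the dimmest signal that its scan rated well above background. These same 2 arrays placed IRT1 among the genes, and they alone took this probe past the filter on dim probes. No p is therefore given for either comparison, and a call of this probe is no support for a difference. The other IRT1 probe did not show the step, with 0.77 (SE 0.80) for psy1r + PSY1 against psy1r. Against WT, the value of WT + PSY1 was -0.15 (SE 0.72, adjusted p = 0.927) on the brighter probe.

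COPT2 was higher in the mutant on every slide. Its probe A_84_P24096 read 10.25, 10.14 and 9.98 in WT, 10.11, 10.00 and 10.07 in WT + PSY1, 11.13, 11.11 and 11.22 in psy1r, and 11.25 and 10.89 in psy1r + PSY1. Wild-type and mutant arrays were separated by a gap, and the replicates of each group lay close together. The log2 fold change was 1.03 (SE 0.12, 2.04-fold) for psy1r against WT, with 0.87, 0.97 and 1.24 within slides. It was 1.01 (SE 0.14, 2.02-fold) for psy1r + PSY1 against WT + PSY1, with 1.14 and 0.83 within slides. With the slide as a block the values were 1.03, past both limits, and 0.998, not called. In the fit without the block both passed the 2 limits and lay just above the 2-fold limit, whereas the FRU value of 2.05-fold with the peptide did not pass because of its adjusted p.

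Leaving out 1 array kept the first COPT2 value past both limits in 8 of 11 cases and the second in 7. As these contrasts had chosen COPT2, such counts describe the fit and test nothing. The first value was 1.04 without WT replicate 2, 0.96 without WT replicate 3 and 0.99 without psy1r replicate 3, and was not called in these cases. The second was 1.04, 0.98 and 1.02 without WT + PSY1 replicates 1, 2 and 3 and 0.84 without psy1r + PSY1 replicate 1, again not called. A dimmer probe, A_84_P811143, read 4.50, 4.41 and 4.49 in WT, 4.45, 4.67 and 4.53 in WT + PSY1, 6.54, 6.42 and 5.86 in psy1r, and 6.12 and 5.04 in psy1r + PSY1. It had the same direction without overlap, with log2 fold changes of 1.81 (SE 0.27, past both limits) and 1.03 (SE 0.30, not called). PSY1 gave no called difference in COPT2 on the brighter probe (-0.07, SE 0.12, adjusted p = 0.791 in wild type and -0.08, SE 0.14, adjusted p = 1 in psy1r). The dimmer probe was not called either, with 0.08 (SE 0.27, adjusted p = 0.887) in wild type and -0.69 (SE 0.30, adjusted p = 0.903) in psy1r. In psy1r its within-slide differences were -0.42 on slide 1 and -0.82 on slide 3, and the groups overlapped.

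**Figure D2:**
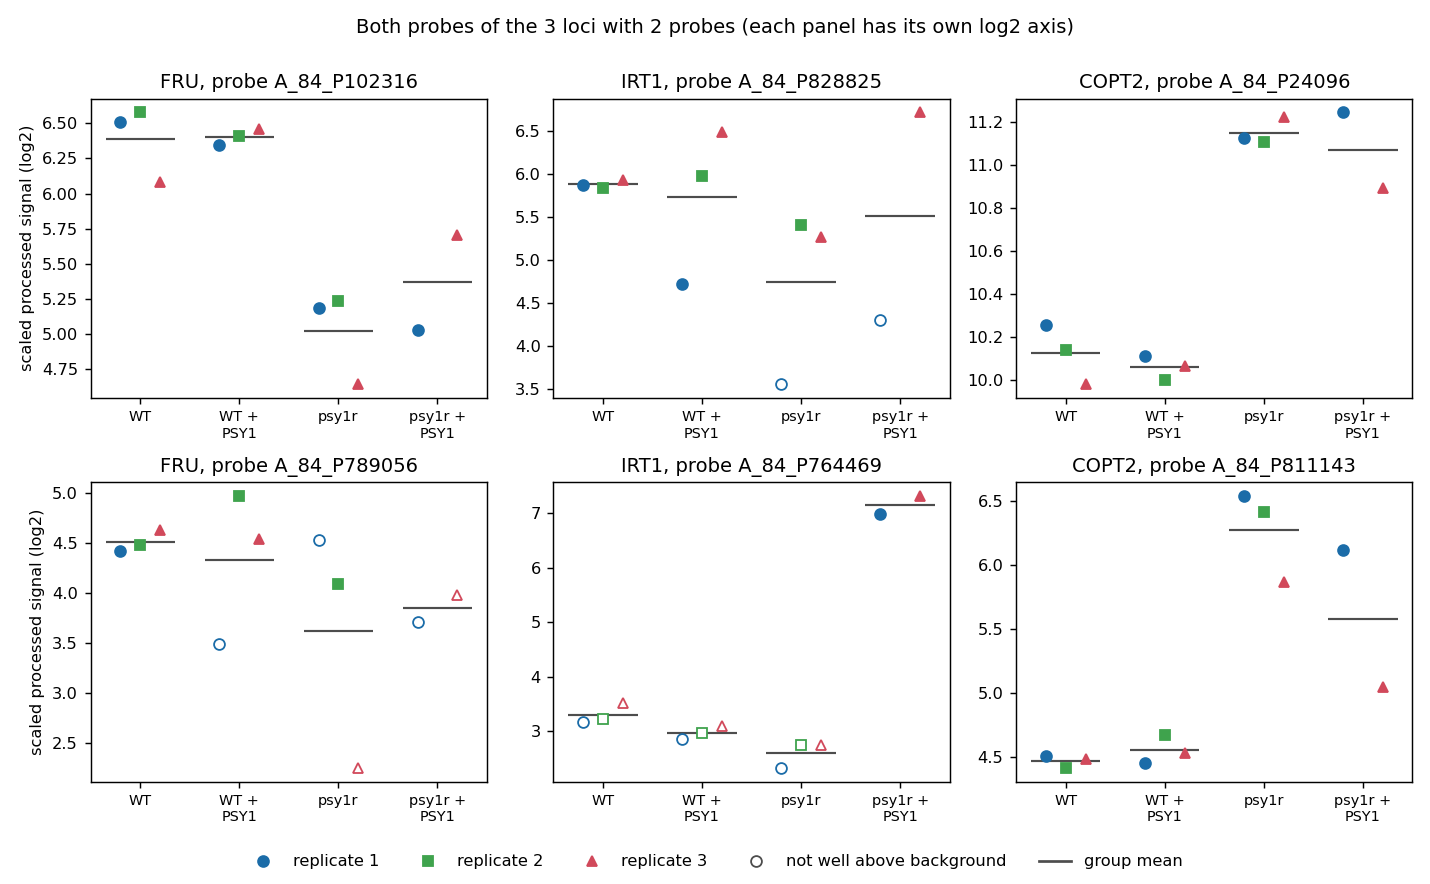
Scaled processed signal (log2, own axis in each panel) of both probes of FRU, IRT1 and COPT2 on the 11 arrays. Symbols mark the replicate number, open symbols are not well above background, and lines are group means. The COPT2 probes have one direction, the dimmer FRU probe is partly at background, and only 1 of the IRT1 probes has the step of psy1r + PSY1 to 6.99 and 7.31.

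Counted by locus, 0 of the 10 genes were called for WT + PSY1 against WT, where 0.206% of all tested probes were called (75 of 36371). For psy1r + PSY1 against psy1r 0 of 10 were called by limma on the brighter probe of each locus, with 0.0165% of all probes called (6 of 36370). These 6 include the second IRT1 probe, which passed the filter only through the psy1r + PSY1 arrays, so nothing is read from its call. At an unadjusted limma p below 0.05, 1 of 10 (PYE) passed in wild type, against 20.9% of all probes, and 0 of the 9 with a test did so in psy1r, against 5.47% of all probes. An unmoderated test between the groups compared called 0 in both. The mutant comparisons called 2 of 10 without PSY1 (FRU lower and COPT2 higher) and 1 of 10 with PSY1 (COPT2), against 0.737% and 1.05% of all tested probes. Since these contrasts had chosen FRU and COPT2, nothing is read from these counts.

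Within slides the directions of the 10 genes split, on the brighter probe of each locus. In psy1r against WT, 9 of 10 were lower on slide 1 and 9 on slide 2, with COPT2 the exception, and their median log2 differences were -1.11 and -0.95. On slide 3, 6 of 10 were lower, with a median of -0.11. In psy1r + PSY1 against WT + PSY1, 9 of 10 were lower on slide 1 (median -1.02), whereas on slide 3 only FRU was lower (median 0.38). Over all tested loci between 47.6% and 55.5% were lower in these 5 contrasts, with medians from -0.05 to 0.03. The 10 genes do not vary independently and were chosen with results of these arrays known, so the counts carry no test. For the group Ib bHLH genes, array 3 stood 1.68 to 2.37 above the other array in psy1r + PSY1. In WT + PSY1 this step was only -0.21 to 0.08. The slide 3 differences with PSY1 therefore do not hold that step constant between the groups.

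**Figure D3:**
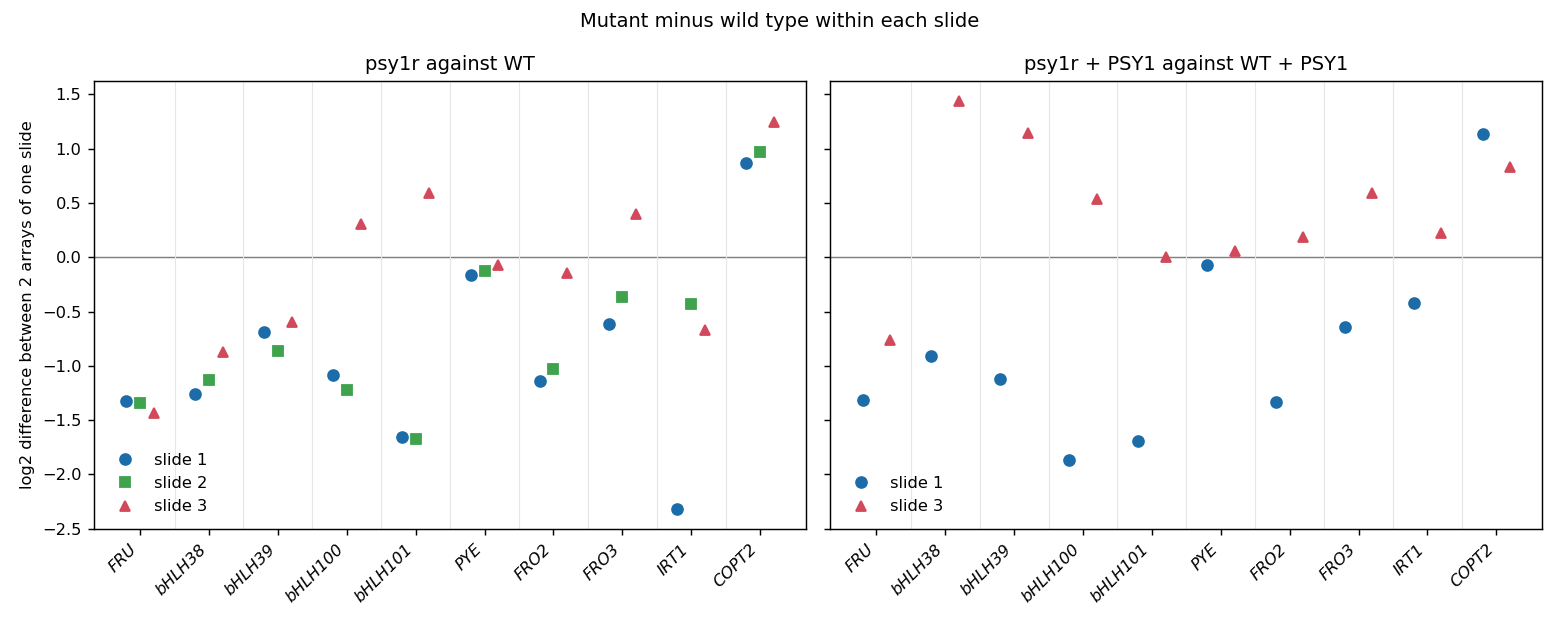
Log2 difference between the mutant and the wild-type array of one slide for each of the 10 genes, with 1 probe per locus, without PSY1 (left) and with PSY1 (right). Symbols mark the slide, and the slide 1 values of IRT1 include a mutant array not well above background. FRU is below 0 and COPT2 above 0 on all slides shown, whereas the group Ib bHLH genes, FRO2 and FRO3 have values below 0 on slide 1 and, with PSY1, at or above 0 on slide 3.

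Across the 11 arrays some of the genes followed each other. As a description over arrays that share group, slide and scaling, Pearson's r was 0.98 between bHLH38 and bHLH39, 0.96 between bHLH100 and bHLH101, 0.93 between FRO3 and bHLH100 and -0.94 between FRU and COPT2. FRU and bHLH39 had an r of 0.12. Among 21771 other loci, the closest to FRU was PSY1R (0.99), followed by AT5G47740, NAC097, AT2G16990 and the exocyst subunit gene EXO70H1 (0.97 each). The closest to bHLH39 were AT3G54630 (0.99), the S-adenosylmethionine carrier gene SAMC2, AT5G17580, the transcription factor gene TCP2 and bHLH38 (0.98 each). For IRT1 they were AT2G06845, AT4G22900, AT4G12100, AT2G07738 and AT1G70390, with r from 0.93 to 0.94. FRU, on its brighter probe, and PSY1R are both low in all mutant arrays, and both have their highest mutant value in psy1r + PSY1 replicate 3. PSY1R is the knocked out gene, and the mutant comparisons of these arrays had chosen FRU and COPT2. A high absolute r among these genes follows from that choice, so nothing is read from it or from the rank of PSY1R.

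Further genes of the iron and copper network were grouped in 7 lists. With at most 1.05% of all probes called in a comparison, 0 calls in a list of this size does not set it apart. The genes of a list or marker set do not vary independently, so counts of values above or below 0 carry no test. Per slide, between 47.6% and 55.5% of all tested loci were lower in the mutant. Of 18 further regulators listed for the iron deficiency network, only the 9 with a matching name in the annotation were tested. None of the 9 was called in any of the 4 comparisons. In psy1r 8 of the 9 were below 0 against WT (median -0.24), and in psy1r + PSY1 all 9 were below 0 against WT + PSY1 (median -0.50), where the medians over all tested loci were -0.03 and -0.005. One of them, MYB72, was well above background on only 1 of 2 psy1r + PSY1 arrays and 2 of 3 WT + PSY1 arrays. ILR3, a group IVc bHLH activator upstream of the group Ib genes, read 13.81, 13.79 and 13.29 in WT and 14.42, 14.34 and 14.39 in WT + PSY1. It read 13.67, 13.62 and 13.40 in psy1r, and 13.95 and 13.23 in psy1r + PSY1. The WT + PSY1 arrays were the highest for ILR3 in the series and did not overlap with those of WT (0.75, SE 0.21, adjusted p = 0.107). bHLH104, of the same group, was -0.37 (SE 0.12, adjusted p = 0.171) in psy1r against WT and -0.41 (SE 0.13, adjusted p = 0.13) in the comparison with PSY1. bHLH115 and BTS, the E3 ligase that turns over group IVc proteins, lay between -0.54 and 0.30 in all 4 comparisons.

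The root uptake genes beside IRT1 and FRO2 gave 0 calls among 5 tested. The proton pump gene AHA2 lay between -0.02 and 0.13 in the 4 comparisons, and the metal transporter gene NRAMP1 between 0.002 and 0.27. PDR9, an exporter of phenolic compounds at the root surface, read 10.63, 10.57 and 10.49 in WT and 9.88, 9.80 and 8.63 in psy1r, a difference of -1.13 (SE 0.32, adjusted p = 0.13) without overlap. With the peptide PDR9 differed by -0.14 (SE 0.36, adjusted p = 0.857). BGLU42, a root beta-glucosidase of the iron response, lay between -0.23 and 0.17.

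Other ferric reductase genes gave 0 calls among 5 tested. FRO6, a plasma membrane reductase of leaves, read 12.87, 12.84 and 11.32 in WT, 13.63, 13.59 and 13.75 in WT + PSY1, 12.36, 12.46 and 12.51 in psy1r, and 13.00 and 11.66 in psy1r + PSY1. The WT + PSY1 arrays were higher than all others, by 1.31 over WT (SE 0.44, adjusted p = 0.151). FRO7, which encodes the chloroplast reductase, had a mean of 10.31 in WT and 11.31 in WT + PSY1 (SE of the difference 0.33, adjusted p = 0.149) and was 2.24-fold lower in psy1r + PSY1 than in WT + PSY1 (SE 0.37, adjusted p = 0.135). Leaf photosynthesis markers ran the same way, with 4 of 5 above 0 in the first comparison (median 0.41) and 0 of 5 above 0 in the second (median -0.48), and their part in the result was not tested. FRO8 and the copper-responsive FRO4 lay between -1.02 and -0.10.

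Iron chelation and long-distance transport genes also gave 0 calls among 10 tested, with medians of 0.34 and 0.38 in the mutant comparisons. ZIF1, OPT3, YSL2 and YSL3, which move nicotianamine, iron or iron chelates between compartments and organs, lay between -0.51 and 0.38. Larger values in this list, chosen after they were seen, were those of YSL1 and the nicotianamine synthase genes NAS1 and NAS3 in psy1r against WT. YSL1 read 7.65, 7.73 and 8.43 in WT and 9.60, 9.45 and 8.93 in psy1r, without overlap (1.39, SE 0.39, adjusted p = 0.132). NAS3 read 4.67, 4.56 and 6.76 in WT and 7.60, 7.55 and 5.97 in psy1r (1.71, SE 0.76, adjusted p = 0.312), higher in psy1r on slides 1 and 2 and lower on slide 3. NAS1 differed by 1.03 (SE 0.49, adjusted p = 0.339), with the groups overlapping. Falls of such a size in other lists, also chosen after they were seen, included those of the regulator MYB10 and the uptake gene IRT2. In psy1r against WT they were -1.34 (SE 0.48, adjusted p = 0.22) and -1.08 (SE 0.42, adjusted p = 0.251), both without overlap. The storage and vacuolar transport list had a lowest value of -1.33 in that comparison. It belonged to a locus that was not called and is not named here. With PSY1 the mutant comparison gave -1.13 (SE 0.54) for MYB10 and -0.58 (SE 0.47) for IRT2. Of 11 storage and vacuolar transport genes, IREG2 was called lower in psy1r than in WT, where 0.737% of all tested probes were called. This tonoplast transporter of nickel and cobalt, known to be induced with the FRU regulon under iron shortage, read 7.69, 7.36 and 7.45 in WT and 6.48, 6.59 and 6.25 in psy1r. Its log2 fold change was -1.06 (SE 0.21, adjusted p = 0.0492), with 7.23, 7.33 and 7.29 in WT + PSY1 and 6.19 and 7.02 in psy1r + PSY1 (-0.69, SE 0.23, adjusted p = 0.147). The call of IREG2 sat at the limit, since leaving out 1 array gave an adjusted p between 0.00881 and 0.187 and values from -1.13 to -0.96, and the other alternatives gave an adjusted p up to 0.704. It was lost without WT replicate 1 (-0.96) or 2 (-1.13), without any psy1r array (-1.08, -1.13 and -0.97) and without any WT + PSY1 array (-1.06 each). No other locus of the 7 lists was called in any comparison, so nothing is read from this call. Vacuolar exporters NRAMP3 and NRAMP4 and the ferritin genes FER3 and FER4 lay between -0.32 and 0.32.

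Of 12 copper genes tested, 0 were called in any comparison. In psy1r against WT 5 were above 0 and 7 below, from -0.65 to 1.18, and the list medians lay between -0.05 and -0.04 in all 4 comparisons. FSD1, the chloroplast iron superoxide dismutase that is repressed when copper is ample, read 15.07, 14.99 and 14.98 in WT and 16.57, 16.45 and 15.57 in psy1r (1.18, SE 0.38, adjusted p = 0.18) without overlap. With the peptide the groups overlapped, since psy1r + PSY1 read 16.63 and 15.06 and WT + PSY1 15.43, 15.34 and 15.34. CSD1, the cytosolic copper/zinc superoxide dismutase, was -0.38 (SE 0.14, adjusted p = 0.218) in psy1r against WT and 0.47 (SE 0.15, adjusted p = 0.14) with PSY1. The copper chaperone gene CCH and the vacuolar copper exporter gene COPT5 lay between -0.40 and 0.28. Among 5 other ZIP family transporters 0 were called. Of the 4 brightest, ZIP1 had the lowest adjusted p (-0.52, SE 0.12, adjusted p = 0.0657, psy1r + PSY1 against WT + PSY1), while ZIP3, ZIP5 and IRT3 lay between -1.05 and 0.49. The dimmest locus of this list reached -1.1 in WT + PSY1 against WT and -1.61 in psy1r + PSY1 against psy1r. In each of these comparisons 1 of the 5 was above 0.

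**Figure D4:**
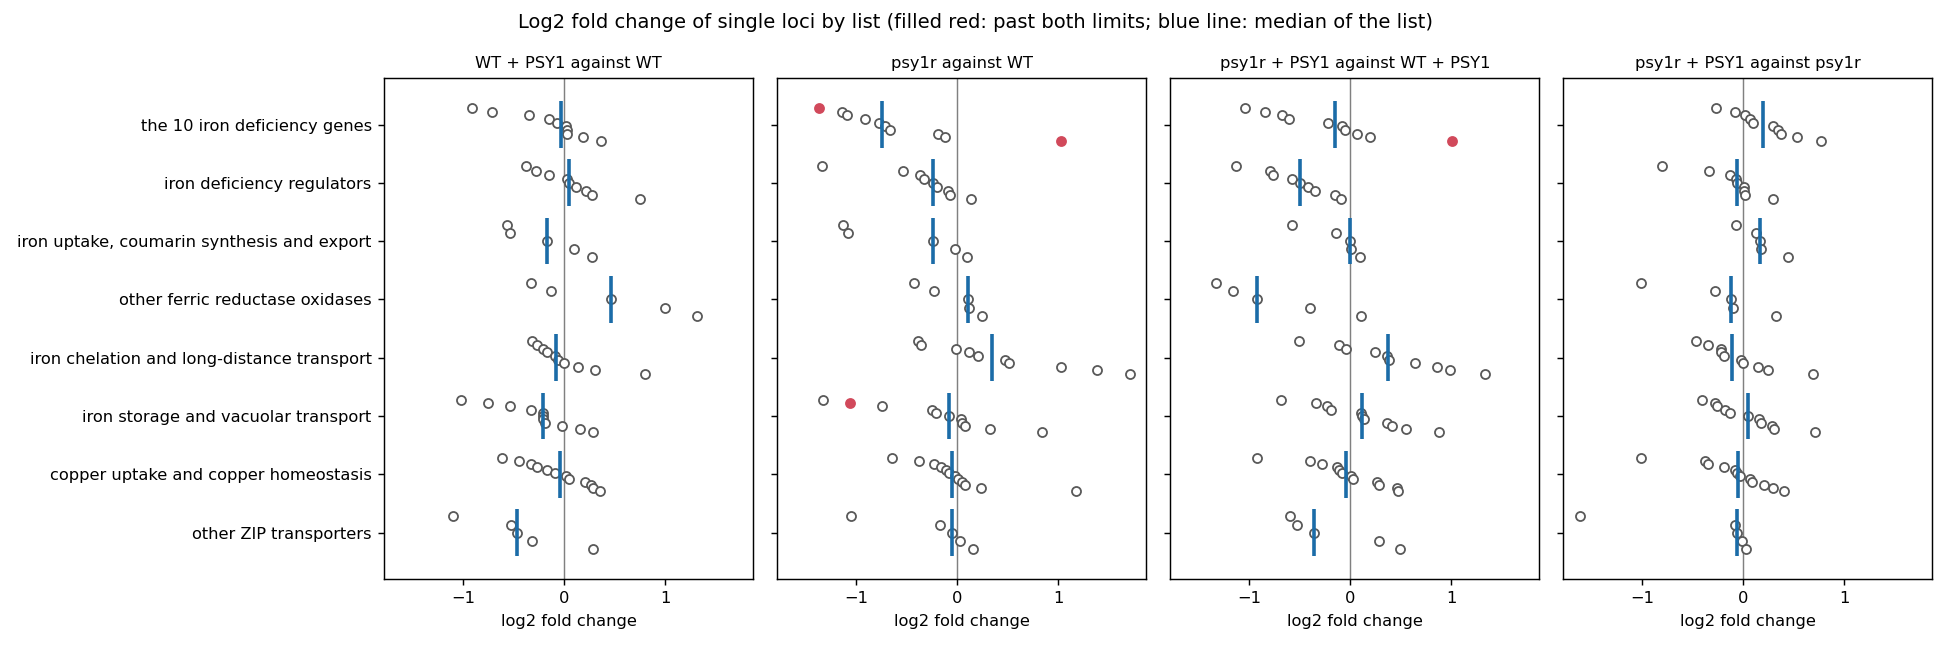
Log2 fold change (x axis) of each tested locus in the 4 comparisons, with the 10 iron deficiency genes on top and the 7 lists of related genes below, 1 point per locus. Filled red points passed both limits and blue lines are list medians. Red points are FRU and COPT2 among the 10 genes and IREG2 among the storage and vacuolar transport genes.

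Root epidermis markers gave 0 calls among 9 in these comparisons. They were below 0 for 7 of 9 in psy1r against WT (median -0.53). In psy1r + PSY1 against WT + PSY1 they were below 0 for 9 of 9 (median -0.72). The pooled values of FRU, FRO2 and the brighter IRT1 probe, genes expressed in the same cell layer, were below 0 as well. With PSY1 on slide 3, however, FRO2 (0.18) and this IRT1 probe (0.22) were above 0, and so was the pooled value of the second IRT1 probe (4.17). Of the 5 other root markers, 2 were above 0 in the first comparison (median -0.24) and 5 in the second (median 0.335). The part of these markers in the values of FRU, FRO2 and IRT1 was not tested. Markers of one set do not vary independently, so their counts carry no test.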

How the data were processed

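The authors deposited the scanner output of 11 one-color arrays, and per the file headers Agilent Feature Extraction 10.7.3.1 wrote the processed signal intensity used here, which is background-subtracted and not normalized between arrays. A deposited table of log2 values, with each row centered, correlated at 0.99987 or above on each array with the scaled and centered intensity. The methods name RMA, which was tried as an alternative. Each array's log2 intensity was set to a common 75th percentile (mean of the arrays, 10.66). Control spots and outlier flags were left out and the spots of a probe averaged, which left 43603 probes. A probe entered the fit where 2 or more arrays had it well above background, which held for 36371 probes, fitted with limma 3.58.1 in R 4.3.3 over all 4 groups, without covariates, and the procedure was tested on simulated data. No spot was saturated. Probe and locus were matched through RefSeq transcripts of the TAIR10.1 annotation (34358 probes), and a locus is its tested probe with the highest mean.

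The genes and lists were chosen with earlier results of these data known. Named were PSY1R, the 10 genes, list loci that were called, the 4 brightest of each list and the 5 loci closest to FRU, IRT1 and bHLH39. A few more list loci were named after their values were seen, as stated there. Of 75 listed loci, 13 had no matching name in the annotation and were left out. Alternatives were RMA, normexp with offset 50, the authors' values, other filters, the slide as a block, other tests and each array left out. The number of arrays limits the precision. Sequences and coordinates were not used here.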

Additional observations from a re-analysis of the deposited data

Results flagged for a closer look

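For bHLH38 the within-slide differences between treated and untreated arrays were all below 0 in wild type and none was below 0 in psy1r. In wild type the treated array was below the untreated one on slides 1, 2 and 3 (-0.35, -0.20 and -2.19), and in psy1r, which had no treated array on slide 2, the differences were 0.003 on slide 1 and 0.11 on slide 3. The difference between the responses was 1.28 on the log2 scale (SE 1.11), and this difference was not tested, because it combines the mutant comparisons on which genes of the set had been selected. The psy1r difference on slide 1 is close to 0.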

How the results depend on the processing

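On the brighter probe of each locus, no gene of the set was called in either PSY1 comparison under any alternative run. The second IRT1 probe passed both limits in psy1r + PSY1 against psy1r, but it had passed the filter only through the psy1r + PSY1 arrays. FRU stayed lower and COPT2 higher in both mutant comparisons under all alternative runs, although their calls did not stay. In psy1r against WT the called genes were FRU and COPT2 (2), 1 under RMA (FRU), 1 with the slide as a block (COPT2) and 0 with normexp, with only the groups compared, with an unmoderated test of the groups compared or with replicates 1 and 2 averaged. In psy1r + PSY1 against WT + PSY1 the 1 called gene was COPT2, FRU under RMA, and 0 with normexp, with the block, with the unmoderated test or with replicates 1 and 2 averaged. Leaving out 1 array gave 0 to 2 called genes in each. The averaging was chosen after seeing the data. The causes were not tested, except that averaging leaves fewer samples.

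Over all probes, WT + PSY1 against WT had 75 calls, with 20 under RMA, 28 with no filter, 167 for probes well above background on all arrays, 467 with only the groups compared, 265 with the unmoderated test after Benjamini-Hochberg adjustment and 0 with replicates 1 and 2 averaged. For psy1r against WT, 268 became 175 with normexp, 95 with only the groups compared, 11 with the unmoderated test and 0 with averaging. For psy1r + PSY1 against WT + PSY1, 382 became 863 under RMA, 638 with only the groups compared, 235 with the unmoderated test and 7 with averaging. For psy1r + PSY1 against psy1r, 6 became 29 under RMA, 16 with normexp, 1 for probes above background on all arrays, 0 with only the groups compared, 0 with the unmoderated test and 2 with averaging. Leaving out 1 array gave 0 (without WT + PSY1 replicate 3) to 330 calls, 81 (without WT replicate 2) to 967, 26 (without WT + PSY1 replicate 1) to 1038 and 2 to 114 calls in the same order.

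Equal replicate numbers shared a slide, but the deviations of same-numbered arrays correlated between -0.152 and 0.406, not all above 0.1, so the numbers were not taken as pairs. With the replicate block the calls were 0, 222, 122 and 3 in the order above. In psy1r + PSY1 against psy1r the block turned the sign of bHLH100 (-0.154), bHLH101 (-0.0683) and bHLH39 (-0.163).

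Other sign changes concerned values that were never called. In WT + PSY1 against WT they were the other probe of COPT2 (0.084) and FRU (-0.178), bHLH100 under RMA (-0.0266) and normexp (-0.0273), and, with averaging, IRT1 (0.0277), bHLH100 (-0.0993) and bHLH101 (-0.0473). In psy1r + PSY1 against psy1r they were bHLH100 under RMA (-0.203) and normexp (-0.199) and, with averaging, bHLH100 (-0.345), bHLH101 (-0.35) and bHLH39 (-0.22). Leaving out 1 array spanned 0 in the first comparison for FRU (-0.14 to 0.11), IRT1 (-0.531 to 0.354), bHLH100 (-0.0991 to 0.279) and bHLH101 (-0.0584 to 0.17). In the second it did so for COPT2 (-0.258 to 0.0949), IRT1 (-0.438 to 1.98, with no test), FRO2 (-0.288 to 1.35), FRO3 (-0.308 to 0.906), bHLH100 (-1.16 to 1.21), bHLH101 (-0.741 to 0.991), bHLH38 (-0.72 to 1.47) and bHLH39 (-1.05 to 1.19). The dim FRU and IRT1 probes lie near background, which limits what their values can show.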
